A study of Mus musculus with 32 samples.

Results

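Branched-chain amino acid catabolism was followed here through 10 genes, named by symbol: Bcat2, Bckdha, Bckdhb, Dbt, Ivd, Mccc1, Hibch, Hibadh, Aldh6a1 and Acadsb. They are 10 of the 57186 genes listed in the count table, and all 10 were among the 14428 genes with enough counts to be tested. RNA was measured in 3T3-L1 cells, a clonal mouse preadipocyte line, after they had been turned into adipocytes with insulin, dexamethasone and IBMX. The 32 libraries form 8 groups of 4. Cells received DMSO (the vehicle), SCO, CAP7 or ROSI, the last being rosiglitazone, a drug that activates the nuclear receptor PPARγ. Each was given without or with TNF-alpha (TNF), an inflammatory cytokine, for 24 h. An extract of Artemisia scoparia is named in the title of the series; the labels do not spell out SCO or CAP7, and no dose stands in them. All groups share the same line and the same differentiation, so the results concern 1 cell line in culture. The labels call the 4 libraries of a group biological replicates without saying whether they came from separate cultures, so p-values measure the spread between these libraries, which may be partly technical.

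Leucine, isoleucine and valine are the branched-chain amino acids. Adipocytes first move their amino group to a keto acid acceptor through the mitochondrial transaminase BCAT2, and the resulting branched-chain keto acids are then oxidised by the branched-chain keto acid dehydrogenase (BCKDH) complex, which commits them to breakdown. That complex holds an E1 enzyme built from an alpha subunit (Bckdha) and a beta subunit (Bckdhb), an E2 core (Dbt) and an E3 subunit (Dld) shared with other complexes. The 3 pathways then part: IVD and the carboxylase subunit MCCC1 act on leucine, ACADSB on isoleucine, and HIBCH, HIBADH and ALDH6A1 on valine. The carbon ends as acetyl-CoA, acetoacetate or propionyl-CoA, and in differentiating adipocytes it is known as a source for lipid synthesis.

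RefSeq promoter windows, on the mouse build GRCm38.p6, were at hand for 9 of the 10 genes, in 12 windows of 250 bases upstream of a transcript start. The counts were made on GRCm39, so these positions belong to another build than the counts. Parts of a window that overlap an annotated protein-coding exon were left out. Stretches of 3 genes are printed here: Bckdhb, the member whose direction parted from the others under TNF, and Mccc1 and Hibadh, which moved in opposite directions under the compounds alone. Capitals mark AGGTCA, the half-site of nuclear receptors such as PPARγ, or CCAAT, each in either orientation (TGACCT and ATTGG).
Bckdhb, chr9:83924887-83925136, plus strand: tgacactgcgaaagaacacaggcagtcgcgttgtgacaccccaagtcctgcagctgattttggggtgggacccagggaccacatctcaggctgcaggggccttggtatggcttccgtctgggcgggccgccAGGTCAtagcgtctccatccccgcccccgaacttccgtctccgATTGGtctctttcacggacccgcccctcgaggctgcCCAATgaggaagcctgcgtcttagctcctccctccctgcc
Mccc1, chr3:36000679-36000928, minus strand: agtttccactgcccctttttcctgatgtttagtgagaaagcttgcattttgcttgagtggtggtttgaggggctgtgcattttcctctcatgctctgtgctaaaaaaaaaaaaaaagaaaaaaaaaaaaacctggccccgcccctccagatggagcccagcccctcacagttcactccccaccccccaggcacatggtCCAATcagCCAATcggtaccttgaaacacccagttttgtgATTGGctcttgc
Hibadh, chr6:52640390-52640550, minus strand: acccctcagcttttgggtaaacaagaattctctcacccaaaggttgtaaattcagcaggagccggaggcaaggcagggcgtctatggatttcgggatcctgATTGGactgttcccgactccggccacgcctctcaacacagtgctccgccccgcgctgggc
The Bckdhb stretch holds 1 AGGTCA and 2 CCAAT, the Mccc1 stretch 3 CCAAT and the Hibadh stretch 1 CCAAT. Over the full windows, AGGTCA was found in 2 of 12 windows of the members, those of Bckdhb and Aldh6a1, against 14% of 32851 windows of all genes. CCAAT was found in 6 of 12, against 33.8%. DR1, a direct repeat of AGGTCA spaced by 1 base, was in 0 of 12 windows and in 0.0335% of all windows. The direct repeat holds the half-site in both of its arms, and AGGTCA and CCAAT can share at most 1 base. A match is a run of letters, not a site shown to be bound.

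A library held 11.3 to 37.7 M counts (M stands for 1e6; median 20.9 M). Adipocyte genes (Adipoq, Fabp4, Plin1, Cidec, Lipe and Cebpa) had counts in all 32 libraries. Their summed level was 28880 to 30650 CPM (counts per 1e6, normalised by TMM factors) in DMSO, 8524 to 10280 with TNF, and 28480 to 34960, 30190 to 37560 and 46390 to 56920 with TNF plus SCO, CAP7 and ROSI. Without TNF the 3 compounds gave 50340 to 56810, 39550 to 50710 and 58540 to 68870. Fabp4 weighed most in this sum, with means of 15840 CPM in DMSO, 5692 with TNF and 26630, 25980 and 42190 with the compounds added. All 6 were called lower with TNF, against 27.5% of all genes, with a median log2 change of -2.32. Under TNF all 6 were called higher with each compound, against 13.2%, 18% and 19.6% of all genes. The medians were 1.735, 1.97 and 2.30. Of the 6, 5, 5 and 4 were still called lower than in DMSO with TNF plus SCO, CAP7 and ROSI. Of all genes, 22.3%, 19.2% and 21.1% were, and 1 of the 6 was higher in each (25.2%, 21.4% and 24.9%). Without TNF, 4, 5 and 6 rose (10.3%, 15.2% and 18.4% of all genes). Adipoq was called with neither SCO nor CAP7 there (-0.12 and -0.16). Of the leukocyte markers, Adgre1 was at 0 in every library and Ptprc had counts in 2; their sum was 1.78 to 4.03 CPM in DMSO and 10.6 to 14.1 with TNF, and that of endothelial markers reached at most 1.79. Under TNF the leukocyte gene that moved was Cd68, from a mean of 0.942 to 10.5 CPM (log2 change 3.54), while Csf1r had means of 1.27 and 1.28 CPM and Lyz2 of 0.429 and 0.321. Fibroblast and preadipocyte genes summed to 1879 to 2309 CPM in DMSO, 1336 to 1488 with SCO, 1163 to 1419 with CAP7 and 1376 to 1565 with ROSI. Of the 5 of them tested, 4, 5 and 5 fell with these compounds, against 8.99%, 15% and 19% of all genes. With TNF the sum was 1204 to 1340 CPM, and 862.3 to 1129, 942.5 to 1322 and 1037 to 1224 with SCO, CAP7 and ROSI added. TNF lowered 3 of the 5 and raised Pdgfra, a marker of preadipocytes, from a mean of 26.4 to 56.7 CPM (1.10). Of all genes, TNF lowered 27.5% and raised 26.7%. Under TNF 4, 2 and 3 of the 5 fell with the compounds, against 8.09%, 14.2% and 16.3% of all genes. Counts from mitochondrial genes made up 9.80 to 13.8% of a library. In bulk RNA, fewer cells of a type and less RNA per cell cannot be told apart, and the part of the adipocyte marker levels in the results below was not tested.

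TNF lowered 9 of the 10 genes and left the beta subunit of E1 as the exception. Each of these 9 genes was lower in all 4 TNF libraries than in any DMSO library. Their log2 changes ran from -1.79 for Hibch to -0.81 for Bckdha, and the median over all 10 genes was -1.38 against -0.01 over all genes tested. Of all genes tested, 27.5% were called lower and 26.7% higher (edgeR quasi-likelihood test, adjusted p under 0.05), and 25.2% were lower without overlap. The 10 genes and the other gene lists were chosen with earlier results of these data known. Here and below, the shares of all genes therefore give a scale and no test of the pathway. None of the 10 was called higher; at an unadjusted p under 0.05 there was 1, Bckdhb, and DESeq2 also called 9 lower and 0 higher.

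Bcat2, the transaminase of the first step, measured 212, 235, 252 and 228 CPM in the 4 DMSO libraries and 68.5, 62.6, 62.4 and 77.3 CPM with TNF. The groups lie far apart, a log2 change of -1.77 ± 0.088 (SE, n = 4 per group, adjusted p = 9.0e-20). Of the BCKDH subunits, Dbt, the E2 core, was at 142, 137, 142 and 135 CPM in DMSO and at 51.8, 57.7, 49.0 and 52.9 CPM with TNF, a change of -1.40 ± 0.097 (adjusted p = 2.3e-15). Bckdha, the E1 alpha subunit, moved least of the 9: it was at 65.8, 61.4, 72.3 and 70.2 CPM without TNF and at 34.8, 39.8, 34.8 and 44.9 CPM with it. Its change was -0.81 ± 0.094 (adjusted p = 2.2e-09). Bckdhb, the E1 beta subunit, measured 125, 131, 136 and 113 CPM in DMSO and 135, 149, 144 and 154 CPM with TNF. These ranges overlap, because 1 TNF library lies below the highest DMSO library. The change of 0.20 ± 0.091 missed the threshold (adjusted p = 0.0578), with an interval of 0.02 to 0.39. The gene was called higher without DMSO replicate 3 or without TNF replicate 1 (0.24 in both), with library sizes alone or with no filter (0.22 in both), and when only these 8 libraries were fitted (0.20).

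In the leucine branch, Ivd (isovaleryl-CoA dehydrogenase) fell from 179 ± 9.5 to 58.7 ± 2.8 CPM (mean ± SD, n = 4), a log2 change of -1.61 ± 0.080, and Mccc1, the biotin-carrying subunit of methylcrotonyl-CoA carboxylase, from 102 ± 9.3 to 37.1 ± 4.5 CPM (-1.47 ± 0.085). The valine branch held the largest fall: Hibch, which frees 3-hydroxyisobutyrate from its CoA ester, was at 161, 166, 171 and 170 CPM in DMSO and at 51.3, 48.4, 47.8 and 46.1 CPM with TNF. That is -1.79 ± 0.079 (adjusted p = 3.1e-21), or 29.0% of the DMSO mean. Hibadh, the next dehydrogenase, fell by 1.21 on the log2 scale and Aldh6a1, the methylmalonate semialdehyde dehydrogenase, by 1.36. Acadsb, the short/branched acyl-CoA dehydrogenase of the isoleucine branch, was at 180, 179, 176 and 179 CPM and at 102, 97.1, 91.4 and 104 CPM with TNF. Its fall of 0.85 (SE 0.072, adjusted p = 5.4e-13) was the smallest of the 9 after that of Bckdha.

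**Figure D1:**
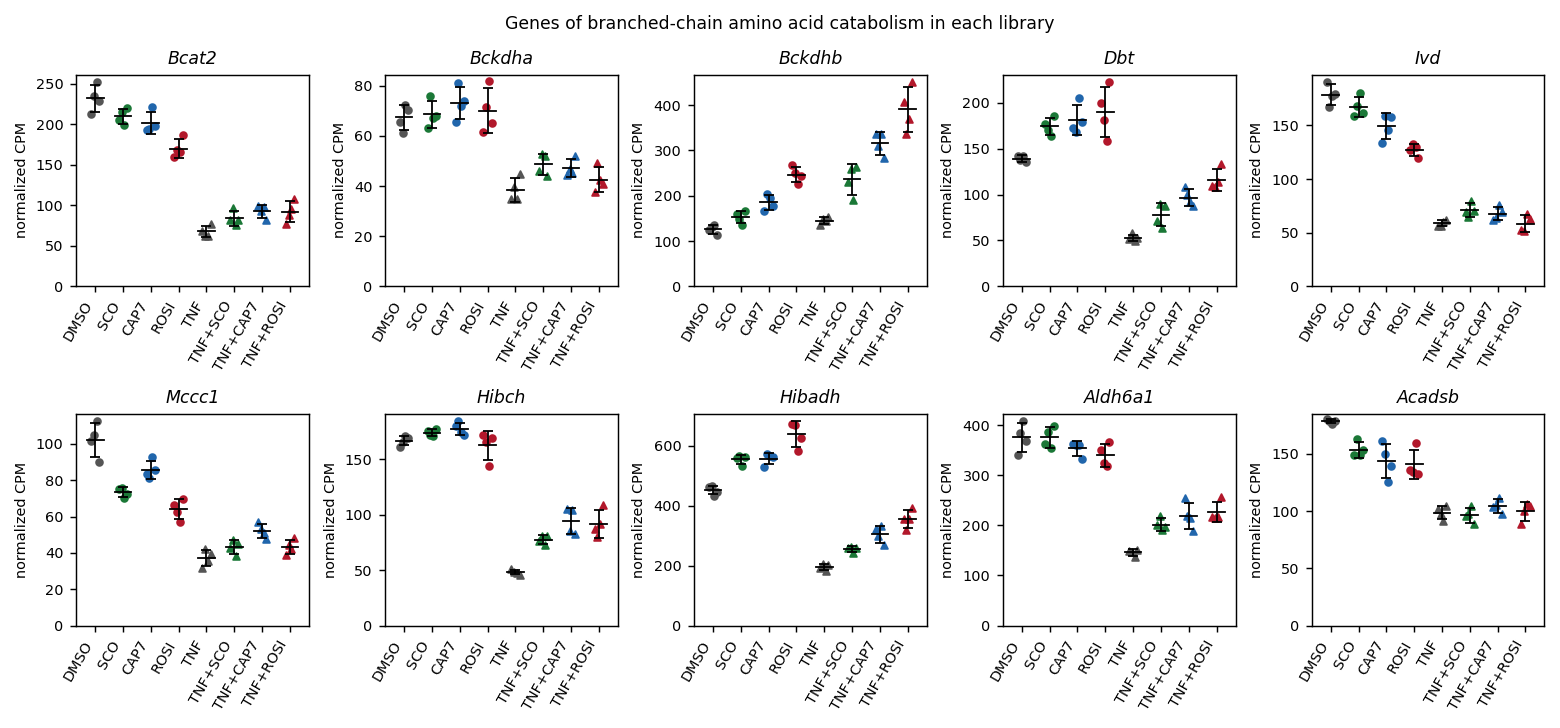
Levels of the 10 genes (CPM, one panel and scale per gene) in all 32 libraries, by group; points are libraries (circles without TNF, triangles with TNF), lines are group means and bars are SDs. All genes but Bckdhb sit lower in the TNF groups than in the DMSO group without TNF, whereas the Bckdhb mean climbs from DMSO to ROSI within each state, without and with TNF.

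Without TNF the calls among the 10 genes went both ways. Bckdhb, Dbt and Hibadh rose with each of SCO, CAP7 and ROSI, whereas Mccc1 and Acadsb fell with each. Ivd also fell with CAP7 and ROSI, and Bcat2 with ROSI. So 3 genes were called higher and 2 lower with SCO (10.3% and 8.99% of all genes), 3 and 3 with CAP7 (15.2% and 15%), and 3 and 4 with ROSI (18.4% and 19%). The medians over the 10 genes were 0.01, 0.00 and -0.09, against -0.01, -0.02 and -0.03 over all genes. The 3 comparisons share the same 4 DMSO libraries, so the same direction in all 3 is not separate evidence.

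Bckdhb measured 160, 149, 135 and 166 CPM with SCO, 166, 204, 194 and 178 CPM with CAP7, and 268, 250, 227 and 243 CPM with ROSI, against the 113 to 136 CPM of DMSO. Only the SCO libraries overlap with DMSO. The log2 changes were 0.27 ± 0.092 (adjusted p = 0.0308), 0.56 ± 0.092 (8.1e-06) and 0.97 ± 0.092 (4.3e-11). The Dbt changes were 0.32 ± 0.095, 0.38 ± 0.094 and 0.45 ± 0.094, none with overlap. Hibadh, at 434 to 466 CPM in DMSO, was at 532 to 566 with SCO, 529 to 571 with CAP7 and 582 to 674 with ROSI, with no overlap in any and changes of 0.30, 0.30 and 0.50 (SE 0.063 in each).

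Mccc1 was at 102, 105, 113 and 90.1 CPM in DMSO, 75.5, 75.7, 70.04 and 72.4 CPM with SCO, and 66.6, 62.5, 57.2 and 69.9 CPM with ROSI. The changes were -0.48 ± 0.084 (adjusted p = 4.0e-05) and -0.68 ± 0.083 (2.0e-08), both without overlap. With CAP7 it fell by 0.26 (SE 0.083), with 1 library above the lowest DMSO library. Acadsb fell by 0.22, 0.31 and 0.34 with SCO, CAP7 and ROSI, without overlap in each. Ivd was at 127, 133, 130 and 119 CPM with ROSI, all below the 167 of the lowest DMSO library, a change of -0.49 ± 0.078 (adjusted p = 2.7e-06), and at 134 to 159 CPM with CAP7 (-0.26 ± 0.078). Bcat2 reached 159 to 187 CPM with ROSI (-0.45 ± 0.085, adjusted p = 4.8e-05). Bckdha, Hibch and Aldh6a1 passed with no compound, the changes running from -0.14 to 0.12.

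With SCO, the Bckdhb call was lost without DMSO replicate 1 or 4, without SCO replicate 1 or 4 (0.22 to 0.26), or with library sizes alone (0.21), and the Acadsb call without DMSO replicate 1 or 2 or without SCO replicate 1, 3 or 4 (-0.20 to -0.22). Without DMSO replicate 1, SCO replicate 1 or SCO replicate 4 both calls went, which left 3 genes for SCO. With CAP7, Mccc1 was lost without DMSO replicate 3 (-0.21) or CAP7 replicate 2 (-0.23), and Ivd without CAP7 replicate 1 (-0.21). Scaling by library size alone shifted the median of all genes to -0.13 with CAP7 and -0.17 with ROSI, and on that scale Aldh6a1 was also called lower with both (-0.20 and -0.28) and Bcat2 with CAP7 (-0.31). Bcat2 with CAP7 was called lower as well by DESeq2 (-0.21) and when only the groups compared were fitted (-0.20). The same held without DMSO replicate 1 or CAP7 replicate 3 (-0.25 in both).

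**Figure D2:**
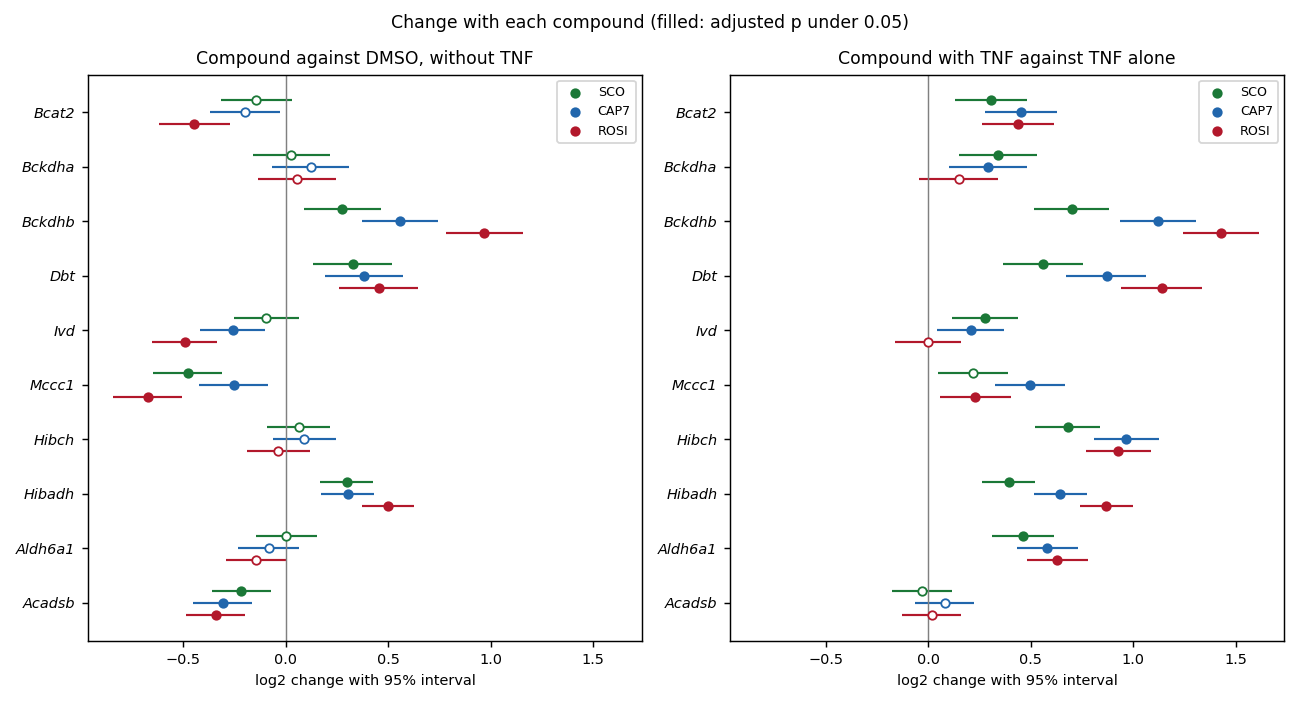
Log2 change of each gene against DMSO (x axis) for SCO, CAP7 and ROSI, without TNF on the left and with TNF on the right; bars are 95% intervals, filled points passed adjusted p under 0.05. Without TNF the points spread to both sides of 0, and with TNF all filled points lie above it.

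With TNF present, no gene was called lower with any compound (edgeR; 8.09%, 14.2% and 16.3% of all genes were), also at an unadjusted p under 0.05 and with DESeq2, and most rose. The number called higher was 8 of 10 with SCO, 9 with CAP7 and 7 with ROSI, against 13.2%, 18% and 19.6% of all genes. The medians were 0.37, 0.54 and 0.53, against 0.01, 0.00 and -0.00 over all genes. The groups did not overlap for 6, 7 and 5 of the 10, against 13.5%, 16.5% and 18.8% of all genes. The 3 comparisons share the 4 libraries of TNF with DMSO.

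The E1 beta subunit had the largest change in each, although with SCO Hibch (0.68) lay within its SE. Bckdhb was at 231, 259, 190.3 and 265 CPM with TNF plus SCO, at 336, 309, 336 and 283 with CAP7, and at 408, 336, 369 and 451 with ROSI, all above the 154 CPM of the highest TNF library. The log2 changes were 0.70 ± 0.091, 1.12 ± 0.091 and 1.43 ± 0.092 (adjusted p = 1.3e-07, 9.8e-13 and 6.9e-16). Dbt had 71.6, 89.6, 63.3 and 87.9 CPM with SCO, 108, 99.4, 91.4 and 87.1 with CAP7 and 109, 108, 114 and 134 with ROSI. No compound library reached down to the 49.0 to 57.7 CPM of TNF alone. Its changes were 0.56 ± 0.096, 0.87 ± 0.096 and 1.14 ± 0.097. Bckdha went the least way of the 3 subunits, with 0.34 ± 0.094 (adjusted p = 0.00718) for SCO and 0.29 ± 0.094 (0.0139) for CAP7, and 0.15 ± 0.094 (0.238) for ROSI, which did not pass. All 3 Bckdha ranges overlap with TNF alone.

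In the valine branch all 3 genes rose with all 3 compounds, without overlap. Hibch was at 76.6, 80.6, 72.5 and 80.4 CPM with SCO, 105, 85.6, 104 and 83.0 with CAP7, and 87.0, 79.6, 92.0 and 109 with ROSI, where TNF alone left at most 51.3. The changes were 0.68 ± 0.078, 0.97 ± 0.078 and 0.93 ± 0.078. Hibadh changed by 0.39, 0.64 and 0.87 (SE 0.064 in each) and Aldh6a1 by 0.46, 0.58 and 0.63 (SE 0.074 in each). Bcat2 rose by 0.31 ± 0.087, 0.45 ± 0.086 and 0.44 ± 0.087; the libraries overlap with TNF alone for SCO and ROSI.

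The leucine branch gave smaller and less even values. Ivd rose by 0.28 ± 0.080 with SCO (adjusted p = 0.00992) and 0.21 ± 0.080 with CAP7 (0.0431), whereas with ROSI it was at 52.1, 51.8, 67.3 and 62.8 CPM, around the 56.2 to 62.1 CPM of TNF alone (-0.00, interval -0.16 to 0.16). Mccc1 rose by 0.50 ± 0.085 with CAP7 without overlap and by 0.23 ± 0.085 with ROSI with overlap, and its 0.22 ± 0.085 with SCO missed the threshold (adjusted p = 0.0616). Acadsb of the isoleucine branch passed with none: its changes were -0.03 (interval -0.18 to 0.11), 0.08 (-0.06 to 0.23) and 0.02 (-0.13 to 0.16).

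The smaller of these calls turned on single libraries. With SCO, Bcat2 was lost without SCO replicate 2 (0.23) and Ivd without SCO replicate 3 (0.22), whereas Mccc1 passed without TNF replicate 2 (0.29) or SCO replicate 3 (0.28). With CAP7, Ivd was lost without TNF replicate 1, 2 or 3 or CAP7 replicate 3 or 4 (0.15 to 0.21) and with no filter (0.20), and Bckdha without TNF replicate 1 or 3 or CAP7 replicate 4 (0.24 to 0.25). With ROSI, Mccc1 was lost without TNF replicate 1 or 3 or ROSI replicate 2 or 4 (0.15 to 0.22) and with no filter (0.22). Library sizes alone shifted the median of all genes to -0.10 with CAP7 and -0.16 with ROSI, and ended the calls of Ivd with SCO (0.21) and CAP7 (0.10), Bckdha with CAP7 (0.19) and Mccc1 with ROSI (0.07).

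The compounds' effects were then compared between the 2 states by an interaction term, the log2 change with TNF minus that without. It was positive and called for 6 of 10 genes with SCO, 9 with CAP7 and 9 with ROSI, against 3.51%, 10.3% and 10.1% of all genes, and negative for none (1.13%, 5.92% and 4.51% of all genes in edgeR), with DESeq2 giving the same counts and no negative term at an unadjusted p under 0.05. The medians were 0.40, 0.53 and 0.59, against 0.04, 0.06 and 0.06 over all genes. All 6 adipocyte genes were called positive with each compound, with larger medians of 1.18, 1.34 and 1.55. Of 15 other enzymes of the pathway, 4, 11 and 11 were positive and 0 negative, against the same shares of all genes. Of 7 regulators and carriers, 1, 2 and 2 were positive and 1 was negative with each compound. Among the 10 genes, Hibch gave the largest term with CAP7 (0.88 ± 0.11, adjusted p = 1.3e-07) and ROSI (0.96 ± 0.11, 1.3e-08), and Mccc1 with SCO (0.70 ± 0.12, 1.1e-04). For Mccc1 the direction turned: ROSI lowered it alone (-0.68) and raised it under TNF (0.23), a term of 0.90 ± 0.12 (adjusted p = 3.6e-07). The same held for Bcat2 with ROSI, at -0.45 alone and 0.44 under TNF (0.89 ± 0.12, adjusted p = 7.4e-07). Bckdha, the gene with the smallest fall under TNF among the 9, was called with none of the compounds (0.31, 0.17 and 0.09). Bckdhb was called with all 3, although it rose with each compound in both states (0.43, 0.57 and 0.46).

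With SCO these calls were weak for 3 genes. Those of Bckdhb and Ivd had adjusted p-values of 0.0479 and 0.0452. Of the 16 fits that leave out 1 library, Bckdhb kept its call only without DMSO replicate 4, SCO replicate 1 or 4, TNF replicate 4 or TNF plus SCO replicate 3, and had 0.37 to 0.44 in the others. Ivd kept it only without DMSO replicate 2, SCO replicate 3, TNF replicate 4 or TNF plus SCO replicate 2, and had 0.32 to 0.39 in the others. Bcat2 lost it without DMSO replicate 3 (0.41) or TNF plus SCO replicate 2 (0.37), and without DMSO replicate 3 the count was 3 genes. With the replicate number as a block, 5 genes were called for SCO.

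Set against DMSO without TNF, the 3 combined treatments left 9 of the 10 genes lower and Bckdhb higher. All 10 were called in each, without overlap, where 22.3%, 19.2% and 21.1% of all genes were called lower and 25.2%, 21.4% and 24.9% higher with SCO, CAP7 and ROSI. The share of genes without overlap was 19.9%, 17.4% and 19% lower and 22.5%, 19% and 22.5% higher. The mean of TNF plus ROSI was 83.5% of the DMSO mean for Dbt and 78.8% for Hibadh, up from 37.9% and 43.2% with TNF alone. It was 55.1% for Hibch, 60.3% for Aldh6a1, 39.6% for Bcat2, 42.5% for Mccc1, 63.2% for Bckdha, 55.9% for Acadsb and 32.7% for Ivd, against 29.0, 38.9, 29.2, 36.3, 57.2, 55.3 and 32.8% with TNF alone. The mean with TNF plus CAP7 was above that with TNF plus ROSI for Bcat2, Bckdha, Ivd, Mccc1, Hibch and Acadsb, with overlap in each. For Dbt, Hibadh and Aldh6a1 it was below. Among the TNF groups, Ivd and Bckdha had their highest means with SCO (71.0 and 48.6 CPM). Bckdhb, at 115% with TNF alone, stood at 187, 251 and 310% with SCO, CAP7 and ROSI. The smallest remaining fall was that of Dbt with ROSI, -0.26 ± 0.095 (adjusted p = 0.0223). Its call was lost without DMSO replicate 3 (-0.25) or without ROSI replicate 1 or 2 (-0.23 in both).

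**Figure D3:**
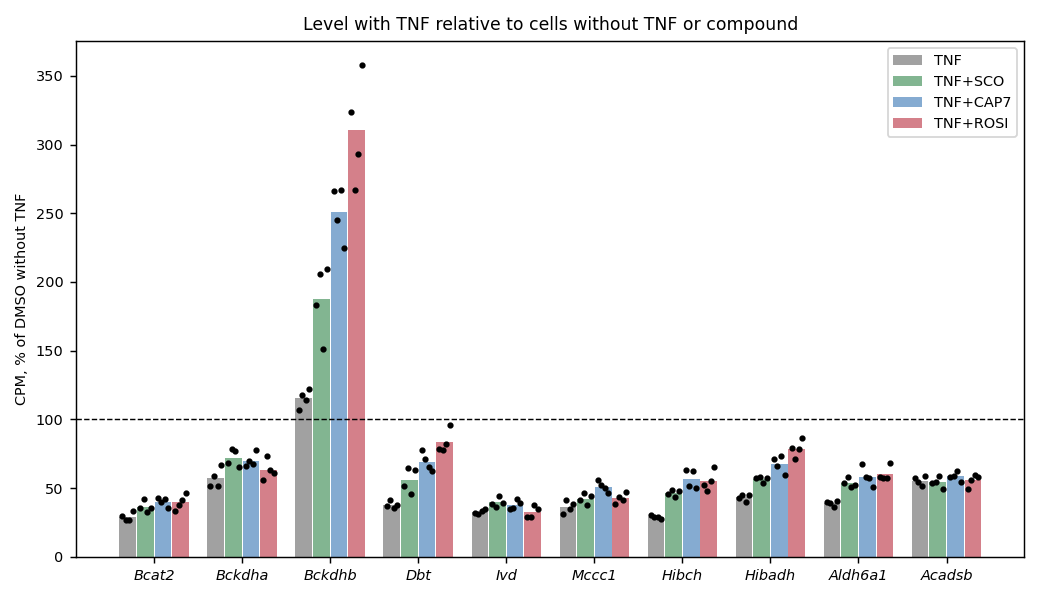
Level of each gene in the 4 TNF groups as a percent of the DMSO mean without TNF (100%, dashed line); bars are group means and black points single libraries. Dbt and Hibadh with ROSI reach 83.5 and 78.8%, and Bckdhb is above 100% in every group.

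The 2 subunits of E1 parted, so the ratio of Bckdhb to Bckdha counts was taken within each library. This ratio was chosen after the values had been seen, and since each gene's counts depend on its own transcript ends, only its change between groups can be read. The mean ratio was 1.88 ± 0.21 (SD, n = 4) in DMSO, 2.23 ± 0.29 with SCO, 2.53 ± 0.12 with CAP7 and 3.59 ± 0.66 with ROSI. With TNF it was 3.80 ± 0.30, and 4.91 ± 0.97, 6.75 ± 0.99 and 9.34 ± 2.0 with SCO, CAP7 and ROSI added. The log2 ratio was higher with TNF than in DMSO by 1.02, without overlap. It was higher by 0.44 and 0.92 with CAP7 and ROSI without TNF and by 0.82 and 1.28 under TNF, again without overlap. With SCO the groups overlapped, at differences of 0.25 without TNF and 0.35 with TNF. Since the values led to the choice of this ratio, no test of it is given. The ratio does not depend on the scaling between libraries.

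**Figure D4:**
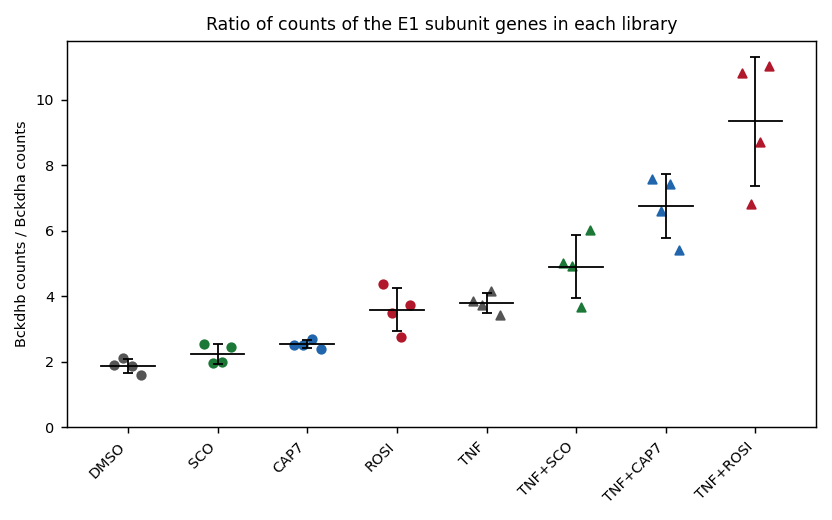
Ratio of Bckdhb to Bckdha counts in each of the 32 libraries, by group; points are libraries, lines are group means and bars are SDs. The ratio is lowest in DMSO (1.61 to 2.13) and highest in TNF plus ROSI (6.83 to 11.02).

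Compounds were also compared with each other in the same state. Without TNF, SCO and CAP7 differed for 0 of the 10 genes (edgeR; 6.04% of all genes in either direction), 3 genes had an unadjusted p under 0.05, and DESeq2 called 1, Bckdhb (-0.28). Their intervals still allow differences. That of Bckdhb, from -0.47 to -0.10, left out 0, although its adjusted p of 0.0594 in edgeR missed the threshold. Bckdhb was also called with no filter (-0.29) and when only the groups compared were fitted (-0.28). The same held without SCO replicate 4 (-0.32) or CAP7 replicate 1 (-0.33). Bckdhb was lower with SCO than with ROSI by 0.69 (SE 0.091) and lower with CAP7 than with ROSI by 0.41 (SE 0.091), and Hibadh by 0.20 in both. Ivd was higher than with ROSI by 0.40 with SCO and 0.23 with CAP7, Bcat2 by 0.30 with SCO and Mccc1 by 0.42 with CAP7. That makes 4 of 10 genes in each, against 14.7% and 11.7% of all genes. The CAP7 difference in Ivd was kept only without CAP7 replicate 1 among the fits that leave out 1 library (0.20 to 0.25 in the others) and was lost with RLE factors (0.22). That in Hibadh was lost without CAP7 replicate 1, 3 or 4 or ROSI replicate 1 or 2 (-0.17 to -0.20), so without CAP7 replicate 3 or 4 or ROSI replicate 1 or 2 the count was 2. The SCO difference in Hibadh was lost without SCO replicate 3 or ROSI replicate 1 or 2 (-0.18 in each). The balance of these calls moved with the scaling. With library sizes alone, SCO against ROSI had 5 genes higher and 1 lower, in place of 2 and 2. Mccc1 (0.27), Aldh6a1 (0.22) and Acadsb (0.20) were gained and Hibadh (-0.13) was lost. CAP7 against ROSI had 3 higher and 1 lower, in place of 2 and 2, with Bcat2 (0.28) gained and Hibadh (-0.17) lost.

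With TNF, SCO differed from ROSI in 5 genes (14.4% of all genes): Bckdhb (-0.73 ± 0.090), Dbt (-0.58 ± 0.095), Hibadh (-0.48 ± 0.063) and Hibch (-0.25 ± 0.077) were lower and Ivd (0.28 ± 0.080) higher. SCO differed from CAP7 in 5, all lower (9.16% of all genes in either direction): Bckdhb (-0.42), Dbt (-0.31), Hibch (-0.29), Mccc1 (-0.28) and Hibadh (-0.25). CAP7 differed from ROSI in 3 (8.57%), with Bckdhb (-0.31) and Hibadh (-0.22) lower and Mccc1 (0.27) higher. The mean Bckdhb level thus stood in the order SCO, CAP7, ROSI, from low to high, in both states, although its CAP7 and ROSI libraries overlap with TNF and its SCO and CAP7 libraries overlap without it. Fitted on the 8 libraries of a pair alone, SCO against CAP7 gave 1 gene, SCO against ROSI 3 and CAP7 against ROSI 0. Leaving out SCO replicate 3 or CAP7 replicate 1 or 3 gave 2 genes for SCO against CAP7, and SCO replicate 1 or CAP7 replicate 2 gave 3. SCO against ROSI had 3 without SCO replicate 3 and 4 without SCO replicate 1 or ROSI replicate 1, 2 or 4. CAP7 against ROSI had 0 without CAP7 replicate 2 and 1 without CAP7 replicate 4 or ROSI replicate 1 or 4. Its Mccc1 difference was lost without CAP7 replicate 1, 2 or 3 or ROSI replicate 1, 2 or 3 (0.22 to 0.28). With library sizes alone CAP7 against ROSI had 2 genes higher and 0 lower, Mccc1 and Ivd (0.26), with Bckdhb (-0.26) and Hibadh (-0.17) lost. SCO against ROSI then had 2 higher and 3 lower, with Bckdha (0.27) gained and Hibch (-0.16) lost.

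Among 15 other enzymes of the pathway, 14 fell with TNF and 1 rose, against 27.5% and 26.7% of all genes, with a median of -0.83 against -0.01 over all genes. The falls included Mccc2, the partner subunit of MCCC1 (-1.85 ± 0.14), Mcee of the propionyl-CoA route (-1.29 ± 0.099), the thiolase Acat1 (-1.11 ± 0.070), the hydratase Echs1 (-1.02 ± 0.061), the mutase Mmut (-0.95 ± 0.060) and the carboxylase subunit Pccb (-0.68 ± 0.059). The gene that rose was Bcat1, the cytosolic transaminase, from 3.04, 6.41, 3.43 and 4.96 CPM to 14.7, 15.4, 11.1 and 15.8 CPM, a log2 change of 1.70. Both forms of the transaminase thus changed under TNF, Bcat2 down and Bcat1 up. With TNF present, 10 of the 15 rose with SCO, 13 with CAP7 and 14 with ROSI, against 13.2%, 18% and 19.6% of all genes. The medians over the 15 were 0.30, 0.48 and 0.60, against 0.01, 0.00 and -0.00 over all genes. Mmab, which makes the cobalamin cofactor of the mutase, rose by 0.64, 0.96 and 0.93, and Echs1 by 0.51, 0.61 and 0.74. Dld, the E3 subunit, rose by 0.34, 0.57 and 0.79. Without TNF, 2, 2 and 8 of the 15 rose, against 10.3%, 15.2% and 18.4% of all genes, and 1 fell with ROSI, against 19%. The counts with SCO and CAP7 are near those shares. Dld was the leading gene at 0.36 ± 0.064, 0.55 ± 0.064 and 0.69 ± 0.064.

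**Figure D5:**
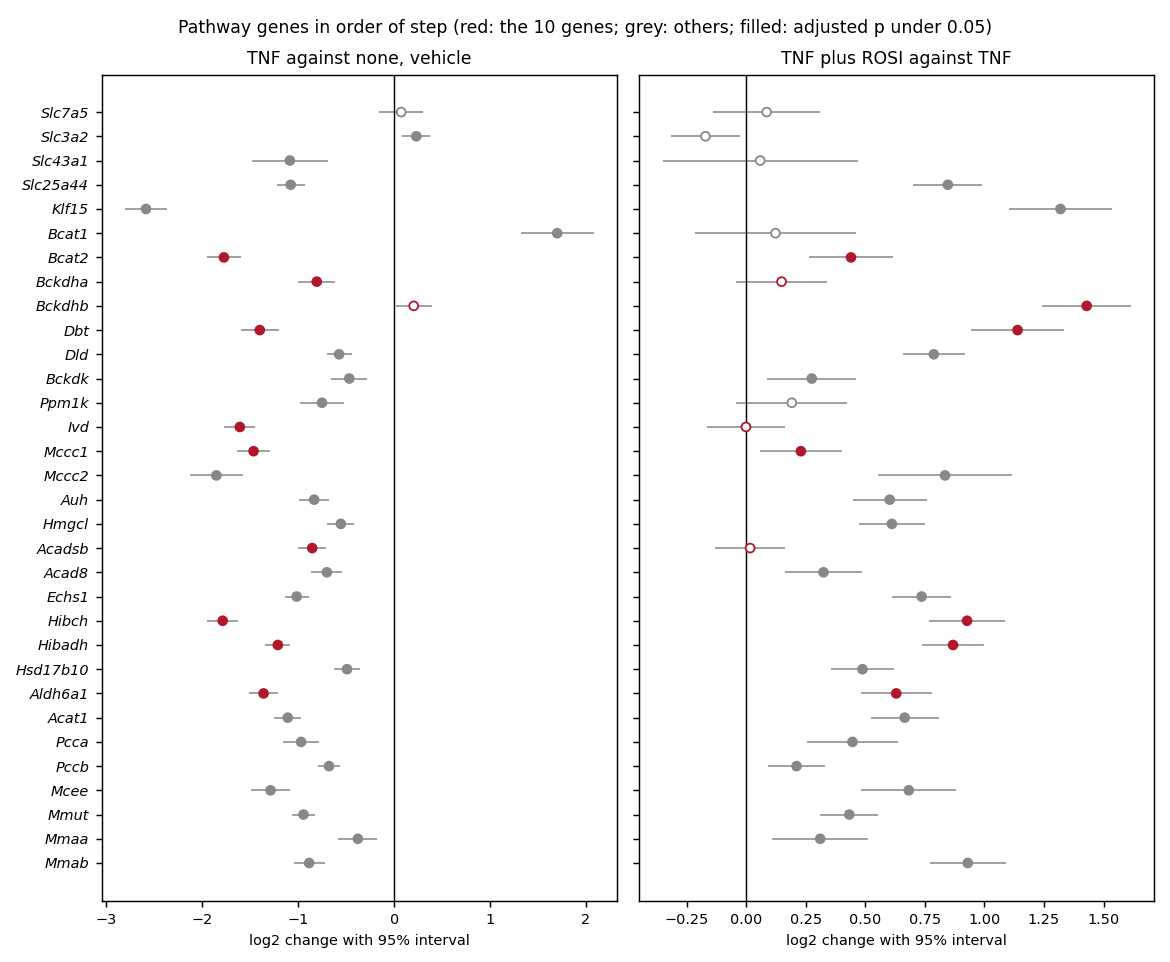
Log2 change with 95% interval (x axis) of 32 pathway genes in order of step, for TNF against none on the left and TNF plus ROSI against TNF on the right; the 10 members are red, other genes grey, and filled points passed adjusted p under 0.05. On the left most points lie below 0, with Bcat1 at 1.70 the furthest above, and on the right no filled point lies below 0.

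Of 8 regulators and carriers, 7 could be tested, since Slc7a8 had too few counts. TNF lowered 5 and raised 1, against 27.5% and 26.7% of all genes. Each compound raised 3 of the 7 in either state. Of all genes, 10.3%, 15.2% and 18.4% rose with SCO, CAP7 and ROSI without TNF, and 13.2%, 18% and 19.6% with it. Without TNF the 3 were Slc25a44, Slc7a5 and Slc3a2 with every compound. Slc7a5 changed there by 0.38, 0.41 and 0.49 and Slc3a2 by 0.23, 0.24 and 0.22. With TNF they were Klf15, Slc25a44 and a further gene, Slc43a1 with SCO and Bckdk with CAP7 and ROSI. Klf15, a transcription factor known to act on amino acid breakdown genes, was at 49.5, 59.9, 57.8 and 54.3 CPM in DMSO and 11.6, 8.61, 8.11 and 8.56 CPM with TNF, a change of -2.59 ± 0.11 (adjusted p = 3.7e-22). It rose under TNF by 0.97 ± 0.11 with SCO, 1.63 ± 0.11 with CAP7 and 1.32 ± 0.11 with ROSI, and without TNF it fell by 0.31 with SCO and 0.71 with ROSI. Slc25a44, the mitochondrial carrier of branched-chain amino acids, fell by 1.08 with TNF and rose with the 3 compounds by 0.38, 0.30 and 0.40 alone and by 0.62, 0.69 and 0.85 under TNF. The kinase Bckdk, which switches BCKDH off, fell by 0.47 with TNF, and the phosphatase Ppm1k, which switches it on, by 0.75. Under TNF, Bckdk rose with CAP7 (0.26 ± 0.092) and ROSI (0.28 ± 0.093) but not past the threshold with SCO (0.15 ± 0.093), and Ppm1k passed with none (0.10, 0.20 and 0.19). The plasma membrane carrier Slc43a1, at a low level, fell by 1.09 with TNF, from a mean of 5.26 to 2.48 CPM. Under TNF it rose by 0.63 with SCO (3.85 CPM) and was not called with CAP7 (0.18) or ROSI (0.06). Slc3a2, the heavy chain of the amino acid exchanger, was the gene that rose with TNF (0.23).

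Over the 8 group means, 9 of the members followed the mean of the other members, with a Pearson r of 0.882 for Acadsb to 0.997 for Hibch, whereas Bckdhb had an r of -0.346. These values describe 8 means that share the split by TNF, with no test. Dbt and Hibadh were the pair most alike beside Hibch and Aldh6a1 (r = 0.994 in both). Outside the pathway lists, the 5 genes most like the members' mean level, among 9415 candidates over the 8 group means, were Prlr (the prolactin receptor), Marc2, 9630013D21Rik, Gnb5 (a G protein beta subunit) and Alad (an enzyme of haem synthesis), each with r = 0.997. Prlr, for example, was at 97.1 CPM in DMSO, 16.5 with TNF and 27.3, 35.5 and 38.3 with SCO, CAP7 and ROSI added.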

How the data were processed

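RNA libraries of 8 groups of 4 were made with the QuantSeq 3' kit, per the labels' protocols, so reads lie near transcript ends. The authors deposited raw counts per Ensembl gene; the submitters' processing notes list STAR 2.7.11b, HTSeq 2.0.5, cutadapt 4.9, limma 3.60.6 and R 4.4.1, with the build GRCm39. How strand, multi-mapping reads and annotation were set is not given in the sources used here, so antisense neighbours of Bcat2, Mccc1, Aldh6a1 (Bbof1, 3643 counts over all libraries) and Bckdha could share reads with them. A single edgeR 4.0.16 fit (R 4.3.3) covered all 32 libraries, with filterByExpr by group, TMM, 1 mean per group, the quasi-likelihood F test, 24 residual degrees of freedom and a common BCV of 0.112. In each of 19 comparisons a gene was called at adjusted p under 0.05 (Benjamini-Hochberg, over 14428 genes); intervals are 95%. Symbols came from GENCODE and gene name tables for 51880 IDs; Mmut was listed as Mut there. The members and lists were chosen with earlier results of these data known. Named were the 10 members, up to 6 other pathway genes per list and comparison by lowest p, always Bckdk and Ppm1k, and the 5 genes most like the members; Bcat1, Dld and Slc43a1 were also named where they led a count. Alternatives were RLE factors, library sizes alone, no filter, DESeq2 1.42.0, the compared groups alone, a replicate block and leaving out each library; those for the ratio were added after seeing the data. On simulated counts for SCO with TNF over 13674 genes, 42% of 1.25-fold, 90% of 1.5-fold and 100% of 2-fold and 4-fold changes were recovered, with 8 false calls. Only 50 genes per fold were changed, none of them at a low level, and all others were left unchanged. In the real data far more genes changed, so these shares need not carry over to them.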

Additional observations from a re-analysis of the deposited data

Results flagged for a closer look

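In 3 of the 80 sets of 4 libraries, 1 library lay apart from the rest, measured as its gap to the nearest library over the whole range (chance alone passes about 1 set in 20). They were Aldh6a1 in CAP7 without TNF, replicate 4 lowest (0.950 of the range; 332 CPM against 361 to 362), Aldh6a1 in TNF plus ROSI, replicate 4 highest (0.943; 257 CPM against 215 to 217), and Acadsb in ROSI without TNF, replicate 3 highest (0.879; 160 CPM against 133 to 136).

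The effect of a compound differed between cells with and without TNF for these genes, given as the log2 change with TNF minus that without, all positive and past adjusted p under 0.05 in edgeR. With SCO they were Bcat2 (0.45), Bckdhb (0.43), Ivd (0.37), Mccc1 (0.70), Hibch (0.62) and Aldh6a1 (0.46). With CAP7 they were Bcat2 (0.65), Bckdhb (0.57), Dbt (0.49), Ivd (0.47), Mccc1 (0.75), Hibch (0.88), Hibadh (0.34), Aldh6a1 (0.67) and Acadsb (0.39). With ROSI they were Bcat2 (0.89), Bckdhb (0.46), Dbt (0.69), Ivd (0.49), Mccc1 (0.90), Hibch (0.96), Hibadh (0.37), Aldh6a1 (0.77) and Acadsb (0.36).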

How the results depend on the processing

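Of 190 values, 1 per gene and comparison, 151 kept their side of the threshold under every alternative run, and no called value changed sign; sign changes between values that passed in neither fit were not counted. With all libraries in, the counts of genes called that moved by over 1.5 times were those of pairs of compounds. For SCO against CAP7 with TNF (5 genes), library sizes alone gave 3 and the groups compared alone 1, and leaving out 1 library gave 2 to 5. For the same pair without TNF (0 genes), no filter gave 1, the groups compared alone 2 and DESeq2 1, and leaving out 1 library 0 to 1. For SCO against ROSI with TNF (5 genes), the groups compared alone gave 3, and leaving out 1 library 3 to 5. For CAP7 against ROSI with TNF (3 genes), the groups compared alone gave 0, and leaving out 1 library 0 to 3. Leaving out 1 library also gave 3 to 5 for SCO against DMSO without TNF (5 genes), 3 to 6 for the interaction of SCO with TNF (6 genes), and 2 to 4 for CAP7 against ROSI without TNF (4 genes). The cause was not tested.

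The replicate numbers were not taken as pairing: deviations from the group mean correlated at 0.01 between libraries of the same number and -0.00 between others, and in 0 of 16 comparisons were all 4 over 0.1. With the number as a block, the SCO interaction had 5 genes (Bckdhb lost, adjusted p = 0.0523) and CAP7 against ROSI without TNF 5 (Bcat2 gained, 0.0479), and the other 17 counts did not move. Depth and 4 libraries a group limit what small changes can be detected, with 42% of the smallest simulated ones recovered, and gene levels reflect 3' ends only.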
